A study of Mus musculus with 4 samples.

Results

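Chromatin accessibility was examined at 10 genes of the antioxidant defence in bone-derived mesenchymal stem cells (MSCs) of old and young mice. The genes were Nfe2l2, Keap1, Hmox1, Nqo1, Gclc, Gclm, Sod1, Sod2, Cat and Txnrd1. Every peak of the common ATAC-seq peak list that overlapped one of these genes or the 5 kb upstream of its start (GENCODE vM21 on GRCm38, the assembly behind mm10) was taken, which gave 27 of 117282 peaks. ATAC-seq uses a transposase to cut and tag open DNA, so that the number of fragments at a peak measures how accessible the site is. There were 2 samples from old mice (18 to 22 months of age) and 2 samples from young mice (3 to 5 months of age), and the cells of both groups were grown at 2% O2 throughout. The study's methods name wild-type C57BL/6N mice and cells sorted as CD45-/TER-119-/Sca-1+/CD140a+ after outgrowth from bone fragments, in a text written for cells of young mice that were kept at low or high oxygen. The old and young cells were therefore cultured cells, not cells taken straight from the bone. The labels do not say whether the samples of a group came from separate mice or cultures, so p-values measure only the spread between these samples, which may be technical. In such bulk samples, a site that is less open in every cell and a site that is open in fewer cells cannot be told apart.

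NRF2, the transcription factor encoded by Nfe2l2, is held at a low level by KEAP1, which presents it to a CUL3 ubiquitin ligase for degradation. When oxidants or electrophiles modify KEAP1, NRF2 is stabilised, pairs with small MAF proteins and binds antioxidant response elements near genes of detoxification, glutathione, thioredoxin and heme metabolism. BACH1 binds the same elements as a repressor, and AP-1 factors bind a related sequence that can overlap them. In MSCs, reactive oxygen species are known to influence self-renewal and the choice between bone and fat cells.

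The antioxidant response element core, with the letters TGACNNNGC searched on both strands, was found 56 times in the 27 peaks, in 16 of them. Of all peaks, 43.3% held it, but the member peaks were wider, with a median of 1500 bp against 1200 bp. The member peaks held 0.50 matches per kb, beside 0.422 per kb over all peaks. The member promoter peaks held 0.52 per kb, beside 0.40 per kb over the promoter peaks of all protein-coding genes. The following stretches of 160 bases show, for 6 genes, the match nearest to the start of the gene that lay in a member peak and outside annotated exons. They are given so that the candidate sites behind the values can be read, and they were copied from the GRCm38.p6 assembly of RefSeq. They run 5′ to 3′ in the direction of transcription of the gene, with the matches in capitals; where a match reads on the opposite strand, the capitals spell its reverse complement.
Nfe2l2, chr2:75703901-75704060, minus strand, 581 to 740 bp after the start: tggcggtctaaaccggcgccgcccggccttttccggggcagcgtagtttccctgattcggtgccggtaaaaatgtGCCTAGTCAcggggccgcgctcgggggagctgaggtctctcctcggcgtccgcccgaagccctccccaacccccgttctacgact
Nqo1, chr8:107404674-107404833, minus strand, from -1627 to -1468 bp, with 2 matches: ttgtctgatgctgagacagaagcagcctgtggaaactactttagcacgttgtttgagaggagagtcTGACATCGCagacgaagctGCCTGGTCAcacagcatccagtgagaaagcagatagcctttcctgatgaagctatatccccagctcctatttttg
Gclm, chr3:122245347-122245506, plus strand, from -210 to -51 bp: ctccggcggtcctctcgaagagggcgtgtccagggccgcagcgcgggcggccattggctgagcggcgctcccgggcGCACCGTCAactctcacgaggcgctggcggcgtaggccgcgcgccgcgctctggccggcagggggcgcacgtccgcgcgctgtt
Sod1, chr16:90220594-90220753, plus strand, from -160 to -1 bp: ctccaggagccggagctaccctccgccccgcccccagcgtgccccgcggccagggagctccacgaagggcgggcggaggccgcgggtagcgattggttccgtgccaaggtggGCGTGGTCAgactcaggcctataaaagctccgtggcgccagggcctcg
Sod2, chr17:13007061-13007220, plus strand, 215 to 374 bp after the start: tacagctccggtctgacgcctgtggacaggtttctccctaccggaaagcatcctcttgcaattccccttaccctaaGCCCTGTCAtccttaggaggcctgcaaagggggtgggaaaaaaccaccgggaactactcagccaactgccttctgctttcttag
Cat, chr2:103464544-103464703, minus strand, in an intron 20457 to 20616 bp after the start: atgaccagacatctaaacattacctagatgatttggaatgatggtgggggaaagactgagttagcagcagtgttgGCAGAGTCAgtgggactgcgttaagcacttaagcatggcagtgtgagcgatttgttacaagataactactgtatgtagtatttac
The Gclm and Sod1 stretches lay shortly before the start of the gene, the Nqo1 stretch further upstream, and the Nfe2l2 and Sod2 stretches close behind the start. A match says only that these letters are present, and binding of a factor was not measured.

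In RefSeq promoter windows of 300 bases (250 before to 50 after a gene start), 8 of the 10 genes had an entry, Hmox1 and Gclc not among them. These 8 genes had 10 windows, of which 4 held the element core (at Gclm, Nfe2l2, Sod1 and Txnrd1), beside 12.4% of all 32851 windows. The AP-1 site TGACTCA was in 0 of the 10 windows and in 5.20% of all windows. The hypoxia response core ACGTG, the short sequence read by hypoxia-inducible factors, was in 2 of the 10 windows (at Gclm and Keap1) and in 19.6% of all windows. Over the member peaks, this core occurred 0.768 times per kb, beside 0.730 per kb over all peaks. Within the member peaks, the AP-1 site and the element core overlapped at 4 places, 1 each in the Hmox1 upstream peak (at -3867 bp), the Gclc upstream peak (at -3786 bp), the Sod1 promoter peak and the Sod2 promoter peak.

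**Figure D1:**
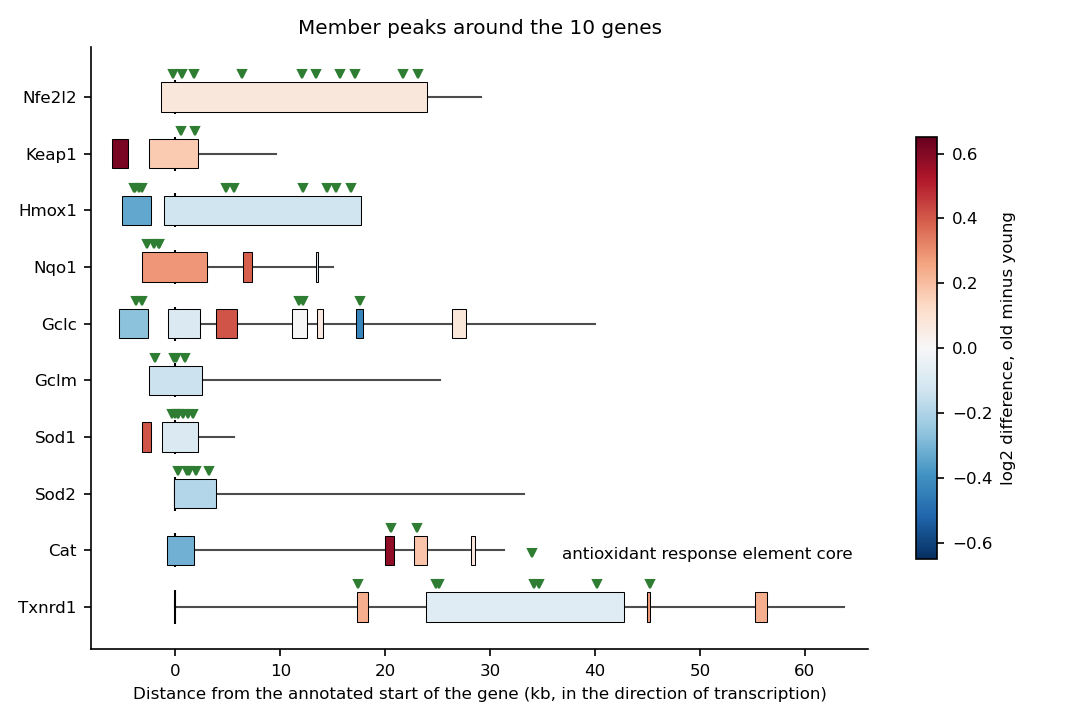
Map of the 27 member peaks. Each box is a peak, placed by its distance in kb from the annotated start of its gene (0, vertical tick) in the direction of transcription, with the gene as a line; the colour gives the log2 difference between old and young, and green triangles mark antioxidant response element cores. Nfe2l2, Hmox1 and Txnrd1 carry a single wide domain each, and the redder boxes lie mostly away from the starts.

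The peaks covered the 10 genes unevenly, as the map of the peaks shows. Nfe2l2 was covered by a single peak of 25300 bp that took up 74.1% of the gene and its 5 kb upstream and also held the starts of Gm24996 and E030042O20Rik. Hmox1 had a peak of 18800 bp that ran 10711 bp past the end of the gene over the start of the neighbouring gene Mcm5, so that its value belongs to both genes. Gclc had 7 peaks, Cat and Txnrd1 4 each, Nqo1 3, Keap1, Hmox1 and Sod1 2 each, and Nfe2l2, Gclm and Sod2 1 each. A promoter peak, which covers the start of the gene or lies within 1 kb of it, was present at 9 genes. The exception was Txnrd1, whose first annotated start had no peak within 1 kb. Its peak of 18900 bp, 23850 to 42749 bp further on, held 4 of the 5 annotated Txnrd1 starts and also the starts of Gm38560 and Eid3, and this peak was added to the named ones after its values were seen. The promoter peaks of the members had a median width of 4700 bp, against 2600 bp for all 13108 promoter peaks, and the other member peaks a median width of 1050 bp. The GC content of the member promoter peaks had a median of 48.6%, against 52.2% for all promoter peaks.

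The deposited values were read as counts per 10000000 counts of the library, with no division by peak length. The scale of 10000000 was assumed. For all comparisons the values were divided by relative log expression (RLE) factors, the median over peaks of a sample's ratio to the geometric mean of the samples. These factors ranged from 0.813 in old replicate 1 to 1.15 in young replicate 2. On the assumed scale, the steps of the values gave library totals from 28259470 to 32559794 counts. A peak with 3 counts had a deposited value between 0.921 and 1.06. The promoter peaks of the members held between 233 and 2852 counts per sample. The weakest member peak, 200 bp wide in Nqo1, had 2, 11, 3 and 12 counts in old replicates 1 and 2 and young replicates 1 and 2, and was the only member peak with a sample at or under 3 counts. Old replicate 2 stood apart in its mitochondrial share, with 6.52% of the summed peak values on the mitochondrial chromosome against 13.5% to 15.7% in the other samples. The stromal markers had a promoter peak at 8 of 8 genes, with summed values per kb between 186 and 223 in the 4 samples. Among blood cell markers it was 2 of 7 (Spi1 and Klf1, summed 31.5 to 47.6 per kb), with no promoter peak at Ptprc, Laptm5, Coro1a, Cd79a and Gata1. Among endothelial markers it was 2 of 4 (Pecam1 and Sox18, summed 33.1 to 36.5 per kb), with none at Cdh5 and Tie1. These sums run over different numbers of peaks, so they can be compared between samples but not between marker groups. The share of all promoter peaks with a lower value per kb had a median of 34.7% for the stromal markers. It was 28.9% for the blood cell markers and 23.8% for the endothelial markers.

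Per kb of peak, the promoter peaks of Sod2 and Cat had the highest values of the list. A value per kb is an average over the whole called peak. The promoter peaks highest per kb were also the narrowest: Sod2 (4000 bp), Cat (2600 bp), Gclc (3100 bp) and Sod1 (3400 bp). The others were 4700 bp (Keap1) to 25300 bp (Nfe2l2) wide. Within these sets the order did not follow width. Sod2 was the widest of the first set, and Keap1, the narrowest of the others, had the lowest value per kb of the promoter peaks. Whether width sets the order was not tested. Sod2, the manganese superoxide dismutase of mitochondria, had an RLE-scaled value of 64.9 ± 5.83 per kb (SD over all 4 samples), higher than 91.1% of all promoter peaks. Cat, the catalase of peroxisomes, followed with 59.2 ± 8.48 per kb. These 2 overlapped in their ranges over the samples, and the lowest Cat sample (48.6 per kb) was above the highest Gclc sample (47.2 per kb). Below them came Gclc (43.9 ± 2.67), Sod1 (38.9 ± 2.06), Gclm (37.0 ± 2.79), Hmox1 (35.0 ± 2.24), Nfe2l2 (32.7 ± 1.20), Nqo1 (28.5 ± 3.79) and Keap1 (24.1 ± 4.08) in RLE-scaled values per kb. Each of these overlapped in its sample range with its neighbour in the order. The Txnrd1 domain, with 22.8 ± 0.80 per kb, overlapped with Keap1. The median of all promoter peaks was 30.0 per kb, so that Nqo1, Keap1 and the Txnrd1 domain lay below it. The highest mean per kb of all member peaks was not at a promoter but at the peak upstream of Hmox1. It had 67.5 ± 9.35 per kb, above 98.6% of all peaks, and the Sod2 promoter was above 98.4% of all peaks. These 2 overlapped in their sample ranges. In both old samples the Sod2 promoter was the higher one (64.3 and 57.1 against 62.7 and 56.6 per kb).

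**Figure D2:**
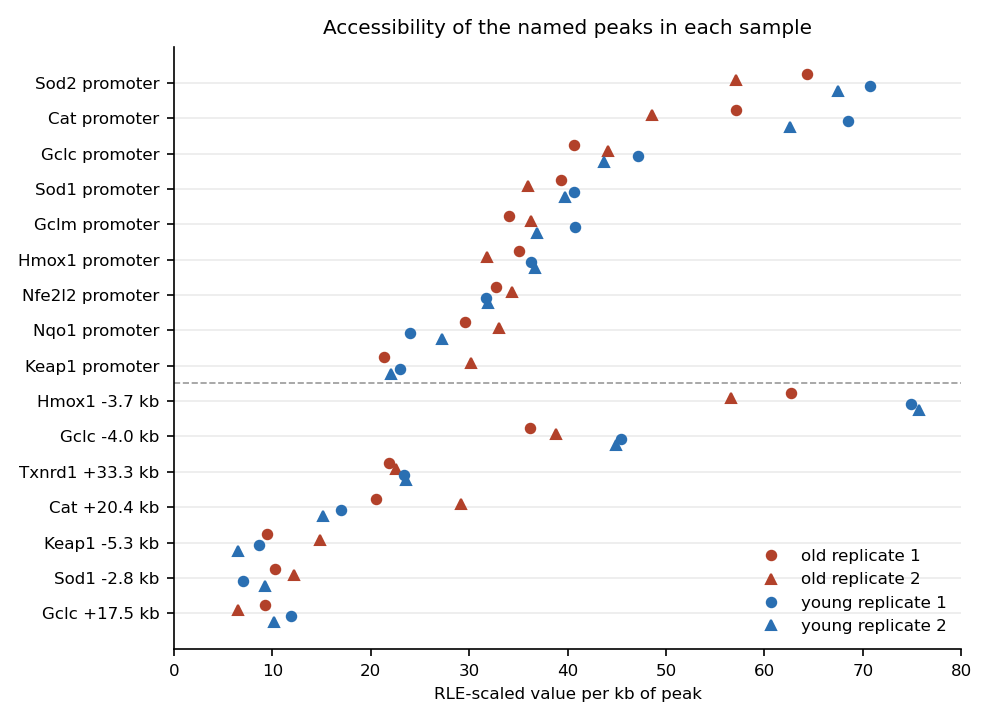
RLE-scaled value per kb of peak (horizontal axis) in each of the 4 samples, for the 9 promoter peaks (above the dashed line) and the 7 other named peaks, labelled by the distance of their centre from the gene start. Red marks old and blue young samples, circles replicate 1 and triangles replicate 2. Old and young points lie apart by little at most promoters, while at the Hmox1 upstream peak the old samples (62.7 and 56.6) lie below the young samples (74.9 and 75.7).

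Between old and young cells, 0 of the 27 member peaks passed the limma test at an adjusted p under 0.01, in either direction. Over all peaks, 0.0307% were called lower and 0.0256% higher in old cells, so that a count of 0 among 27 was near the background. An unadjusted p under 0.05 was reached by 2 of the 27 peaks (7.41%), against 16.4% of all peaks, and the lowest adjusted p of a member was 0.257. With limma-voom on the recovered counts, 0 member peaks were called as well. The count was not the same in every fit that left out 1 sample, as described below. The 95% confidence intervals of the log2 differences of the promoter peaks reached at most 0.38 to either side of the estimate. The log2 differences ranged from -0.43 to 0.62, with a median of 0.068 over the members and of 0.0011 over all peaks.

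The medians of the promoter peaks and of the other member peaks had opposite signs after RLE scaling, but not in the values as deposited. Of the 9 promoter peaks, 6 had a negative log2 difference, with a median of -0.10, and the median of all promoter peaks was -0.039, with 57.1% of them negative. Of the 18 other peaks, 13 had a positive log2 difference, with a median of 0.13, and 51.0% of all peaks away from promoters were positive, with a median of 0.010. Without scaling factors, 12 of these 18 were negative, with a median of -0.13. On the RLE scale, the sign over the members also depended on the old sample. Over all 27 members, the median difference of old replicate 1 was -0.11 from young replicate 1 and -0.04 from young replicate 2. In these pairs 18 and 16 peaks were negative. For old replicate 2 the medians were 0.12 and 0.13, with 11 peaks negative in each pair. The promoter medians were negative in every pair. The number of negative promoter peaks was also 6 with quantile normalization or an equal total signal, and without scaling factors it was 9 of 9, where the median of all peaks was -0.27. The old samples were both lower than the young ones at 9 of the 27 peaks (33.3%; 24.2% of all peaks) and both higher at 8 peaks (29.6%; 23.2% of all peaks). In the values as deposited, these counts were 10 (37.0%; 43.5% of all peaks) and 0 (7.56% of all peaks).

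**Figure D3:**
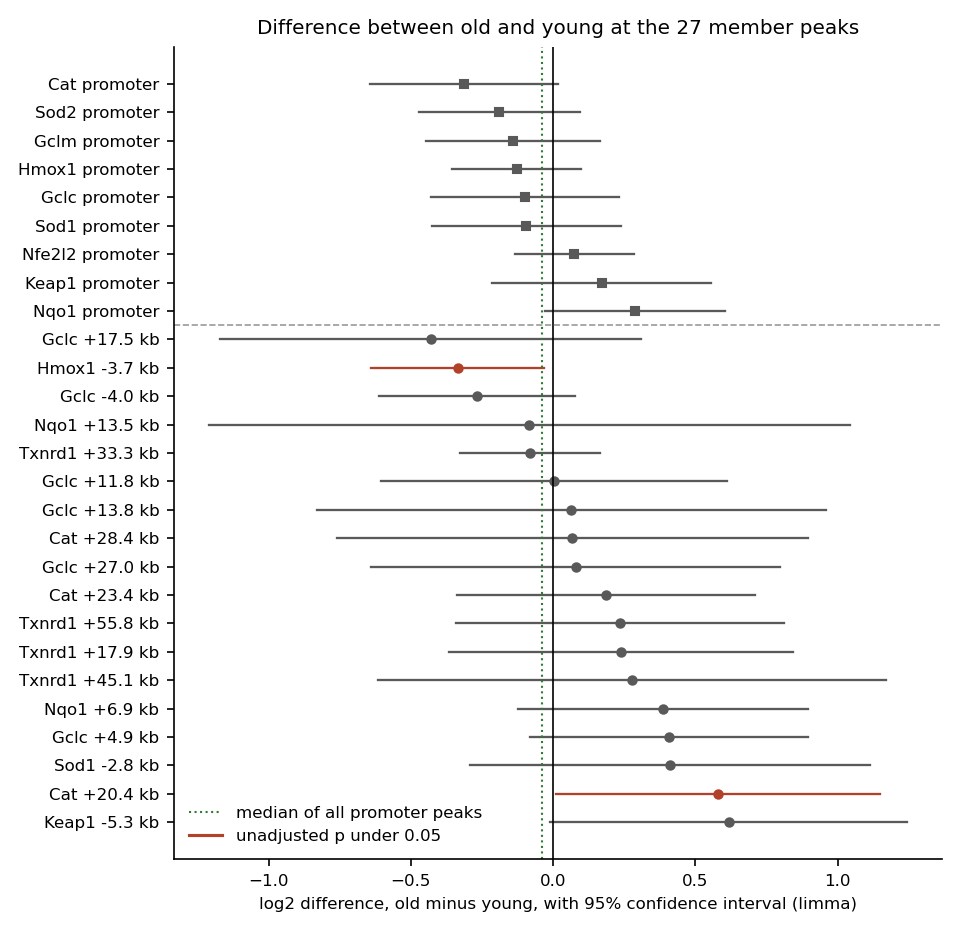
Log2 difference between old and young cells (horizontal axis) at the 27 member peaks, with the 95% confidence interval of the limma fit; squares are promoter peaks, circles the other peaks, and red marks an unadjusted p under 0.05. Of the intervals, 2 leave out 0, those of the Hmox1 upstream peak and of the first intronic Cat peak, and the dotted line gives the median of all promoter peaks (-0.039).

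Nfe2l2 and Keap1 are the sensor pair of the pathway. At the wide Nfe2l2 peak (chr2:75680701-75706000, over exons and introns), the RLE-scaled values were 828 and 869.7 in the old samples and 803 and 808 in the young samples. The old samples were slightly above the young ones, by a log2 difference of 0.07 ± 0.10 (SE, n = 2 per group, limma adjusted p = 0.761), but in the values as deposited the difference was -0.21. At the Keap1 promoter (chr9:21237201-21241900), the values were 100.3 and 142 in old cells and 108 and 104 in young cells. Old replicate 2 alone was above the young samples, so the groups overlapped (log2 difference 0.17 ± 0.18, limma adjusted p = 0.691); without old replicate 2 the difference was -0.07, and as deposited it was -0.12. The peak upstream of Keap1 (chr9:21243901-21245400), from -6039 to -4540 bp, was the member peak with the largest positive difference. It overlapped no exon of Keap1, and exons of other genes were not checked. Its values were 14.2 and 22.3 in old cells and 12.9 and 9.79 in young cells, a log2 difference of 0.62 ± 0.30 (limma adjusted p = 0.315). The groups did not overlap there, although old replicate 1 was above the young samples by little, and in the values as deposited the groups overlapped. The size rested on old replicate 2: the log2 difference was 0.32 without it, below that of the intronic Cat peak (0.35) in the same fit, and 0.92 without old replicate 1.

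Hmox1 encodes heme oxygenase-1, which opens the heme ring to biliverdin, carbon monoxide and iron, and its mouse gene is known for upstream enhancers that hold several antioxidant response elements. The member peak with the lowest p was the one upstream of Hmox1 (chr8:75088501-75091300), centred at -3720 bp from the start, over no exon of Hmox1 and with 4 element cores. The RLE-scaled values at this site were 176 and 159 in the old samples and 209.7 and 212 in the young samples. On both the scaled and the deposited values, the old samples were the lower ones. The log2 difference was -0.34 ± 0.15 (95% confidence interval -0.64 to -0.03, limma adjusted p = 0.257), and it did not pass the threshold. Without old replicate 1 the log2 difference was -0.41, with an adjusted p of 0.00588 by limma, and without old replicate 2 it was -0.25; with only 1 old sample left, its spread is assumed to equal that of the young samples. The domain over the Hmox1 start and Mcm5 (chr8:75092501-75111300) had values of 659 and 597 in old cells and 682 and 690.3 in young cells. The groups did not overlap there either, with a smaller log2 difference of -0.13 ± 0.11 (limma adjusted p = 0.590).

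Nqo1 encodes a quinone reductase of the cytosol that is a much used readout of NRF2 activity. Its promoter peak (chr8:107400201-107406400), which reached from -3194 to 3005 bp around the start and held 4 element cores, had RLE-scaled values of 183 and 205 in old cells and 149 and 169 in young cells. Old cells were higher in both samples, as at Nfe2l2 and at none of the other 7 promoters of the list. The log2 difference of 0.29 ± 0.15 did not pass the threshold (95% confidence interval -0.03 to 0.60, limma adjusted p = 0.358), and as deposited it was -0.0009. The intronic Nqo1 peak 6406 to 7305 bp after the start had a log2 difference of 0.39 ± 0.24 (limma adjusted p = 0.453). Both old samples were again higher on the RLE scale, but in the values as deposited the groups overlapped. The third Nqo1 peak, the weakest member peak, had a log2 difference of -0.08 ± 0.54 (limma adjusted p = 0.958), and its groups overlapped. The promoter peaks of Hmox1 and Nqo1, both known NRF2 targets, thus had differences of opposite sign on the RLE scale. Neither passed the test, and the contrast between them was not tested.

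Gclc and Gclm encode the catalytic and the modifier subunit of glutamate-cysteine ligase, which makes the precursor of glutathione. At the Gclc promoter (chr9:77753801-77756900), the RLE-scaled values were 126 and 137 in old cells and 146 and 135 in young cells, and the groups overlapped (log2 difference -0.10 ± 0.16, limma adjusted p = 0.803). The Gclc upstream peak (chr9:77749201-77751900), from -5334 to -2635 bp, was more clearly ordered, with values of 97.7 and 105 in old cells and 123 and 121 in young cells. The groups did not overlap, with old cells lower, but the log2 difference of -0.27 ± 0.16 did not pass the threshold (limma adjusted p = 0.442). Of the remaining Gclc peaks, all downstream of the start, the intronic one 17166 to 17865 bp after it (chr9:77771701-77772400) had the most negative value of all member peaks. It was a weak peak, with 6.45 and 4.57 in old cells and 8.29 and 7.12 in young cells, and with 15 to 25 counts per sample its log2 difference of -0.43 had an SE of 0.35. The other 4 Gclc peaks had log2 differences between 0.0023 and 0.41, with limma adjusted p-values from 0.401 to 0.998. At the Gclm promoter (chr3:122243001-122248100), the values were 174 and 185 in old cells and 208 and 188 in young cells. The groups did not overlap, by a small margin between old replicate 2 and young replicate 2 (log2 difference -0.14 ± 0.15, limma adjusted p = 0.678).

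The superoxide dismutases convert superoxide to hydrogen peroxide, SOD1 in the cytosol and SOD2 in the mitochondrial matrix. The Sod1 promoter (chr16:90219501-90222900) had RLE-scaled values of 134 and 122 in old cells and 138 and 135 in young cells, and the Sod2 promoter (chr17:13006701-13010700) 257 and 228 in old cells and 283 and 270.1 in young cells. At both, the old samples were below the young ones, by log2 differences of -0.09 ± 0.16 for Sod1 (limma adjusted p = 0.814) and -0.19 ± 0.14 for Sod2 (limma adjusted p = 0.520). Sod1 also had a weak peak from -3153 to -2354 bp (chr16:90217601-90218400), with values of 8.18 and 9.76 in old cells and 5.64 and 7.42 in young cells. There both old samples were above both young ones, with a log2 difference of 0.41 ± 0.33 (limma adjusted p = 0.580) that rested on 17 to 32 counts per sample. In the values as deposited the groups overlapped.

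Catalase splits the hydrogen peroxide that the dismutases make. At the Cat promoter (chr2:103483401-103486000), which held no element core, the RLE-scaled values were 148 and 126 in old cells and 178 and 163 in young cells. Both old samples were below both young ones, and the log2 difference of -0.31 ± 0.16 was the most negative of the 9 promoters (95% confidence interval -0.64 to 0.02, limma adjusted p = 0.334). Without old replicate 1 it was -0.43 with a limma adjusted p of 0.00823, and without old replicate 2 it was -0.19. This peak and the Hmox1 upstream peak were the 2 of 27 members (7.41%) called lower when old replicate 1 was left out, a setting in which 5.52% of all peaks were called lower. The intronic Cat peak 19960 to 20859 bp after the start (chr2:103464301-103465200), whose element core is printed above, had a difference of the other sign. Its values were 18.5 and 26.2 in old cells and 15.3 and 13.7 in young cells, with both old samples higher. The log2 difference was 0.58 ± 0.27 (95% confidence interval 0.0090 to 1.15, limma adjusted p = 0.298). As deposited it was 0.31, and the groups overlapped. Without old replicate 2 it was 0.35, and without old replicate 1 it was 0.82. The other 2 Cat peaks had log2 differences of 0.19 ± 0.25 and 0.07 ± 0.40 (limma adjusted p = 0.763 and 0.953).

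Txnrd1 encodes the thioredoxin reductase of the cytosol, a selenoprotein that keeps thioredoxin reduced. The wide domain over its internal starts (chr10:82857801-82876700) had RLE-scaled values of 413 and 427 in old cells and 442 and 445 in young cells. Old cells were lower in both samples, by a log2 difference of only -0.08 ± 0.12 (limma adjusted p = 0.781). The 3 smaller Txnrd1 peaks had positive log2 differences of 0.24, 0.28 and 0.23, with SEs from 0.27 to 0.43 and limma adjusted p-values from 0.720 to 0.797.

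Peaks beyond the 5 kb limit were not members. The Keap1, Gclc and Hmox1 upstream peaks described above crossed this limit, reaching to -6039, -5334 and -5120 bp. Outside it lay, among others, 2 peaks of 100 bp each at Hmox1, at -7370 and -7270 bp, with RLE-scaled values between 0 and 1.19. A peak of 600 bp at Gclc, at -8034 bp, had 6.45 and 5.18 in old cells and 3.65 and 5.05 in young cells. Peaks centred at -10346 bp at Sod2 and -10250 bp at Txnrd1 had log2 differences of 0.10 ± 0.27 and -0.06 ± 0.21 (limma adjusted p = 0.891 and 0.924). Further peaks at Sod1, Hmox1 and Gclc are described in the last section. The one at Sod1 had a log2 difference of 1.25, larger than that of any member peak.

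The promoter peaks of 44 further antioxidant genes were examined in the same fit. They were present at 42 of them, all but Gsta4 and Prdx4. The limma test called 0 of these 42, and 2 (Blvrb and G6pdx) had an unadjusted p under 0.05, against 16.4% of all peaks; limma-voom also called 0. The median log2 difference was -0.03, with 24 of 42 negative, beside 57.1% of all promoter peaks. The sign of the median depended on the scaling: 17 were negative with quantile normalization (median 0.02), 14 with an equal total signal (median 0.04) and 39 as deposited (median -0.31). By group, on the RLE scale, 4 of 8 regulators of the pathway were negative, 5 of 11 glutathione genes, 6 of 10 thioredoxin and peroxiredoxin genes, 0 of 2 superoxide genes, 5 of 6 genes of NADPH supply and 4 of 5 genes of heme and iron.

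The 2 largest negative values belonged to Blvrb and G6pdx. Blvrb encodes biliverdin reductase B, and its promoter had RLE-scaled values of 228 and 206 in old cells and 314 and 297 in young cells. The old samples were well below the young ones (log2 difference -0.49 ± 0.14, limma adjusted p = 0.0764). G6pdx encodes glucose-6-phosphate dehydrogenase, a main source of the NADPH that glutathione and thioredoxin reductases use, and its promoter had values of 215 and 210.4 in old cells and 278 and 269 in young cells. The groups did not overlap (log2 difference -0.36 ± 0.13, limma adjusted p = 0.186). The largest positive values were at Gstp1, a glutathione transferase (0.40 ± 0.23, limma adjusted p = 0.406), and Gpx8, a peroxidase of the endoplasmic reticulum (0.37 ± 0.20, limma adjusted p = 0.366). At both, old replicate 2 was the highest sample, with 77.2 at Gstp1 and 163 at Gpx8 on the RLE scale, and 1 young sample was above old replicate 1. Without old replicate 2 the log2 differences were 0.08 at Gstp1 and 0.06 at Gpx8, and as deposited they were 0.12 and 0.08. Without old replicate 1, limma called 8 of the 42 promoters, Blvrb and G6pdx lower and Gpx1, Gpx8, Gstp1, Mafg, Nfe2l1 and Prdx2 higher, in a setting that called 8.83% of all peaks. Without old replicate 2 it called Blvrb alone, with 1.43% of all peaks called.

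**Figure D4:**
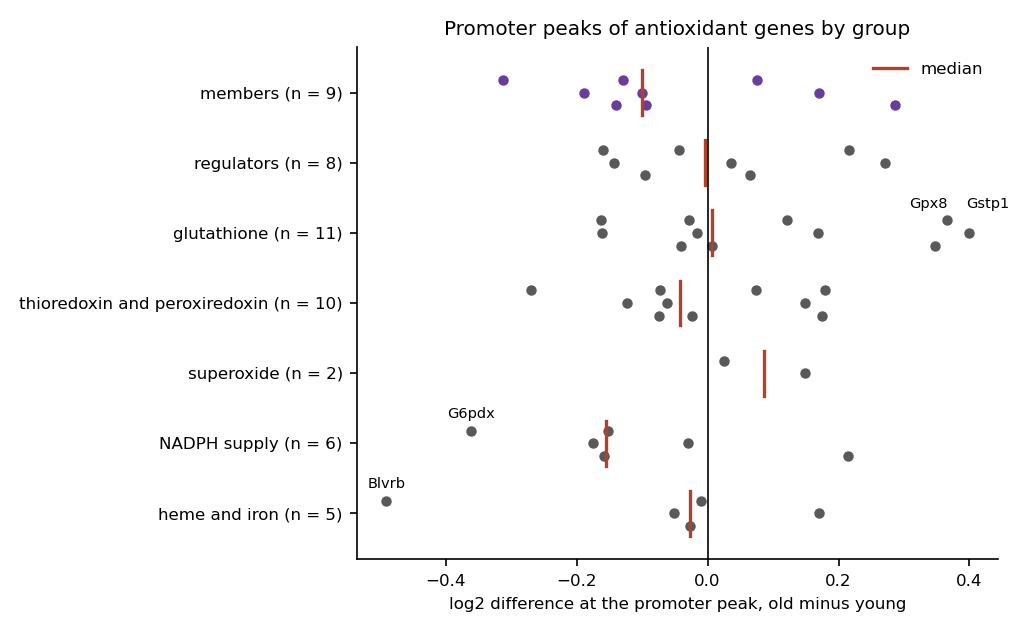
Log2 difference between old and young cells (horizontal axis) at the promoter peaks of the 9 members with one and of 42 other antioxidant genes by group, with the median of each group as a red bar. The values lie between -0.49 at Blvrb and 0.40 at Gstp1, and the members between -0.31 and 0.29.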

How the data were processed

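Per the labels, reads were aligned by the authors with Bowtie2 (build mm10) and cleared of duplicates with Picard. The study's methods add that peaks and peak values came from chromstaR, with bins of 300 bases, steps of 100 bases and a minimum mapping quality of 15. The methods describe this for cells kept at low or high oxygen; the steps for the old and young cells are not given separately in the sources used here. The deposited values, which the authors call RPKM, are treated as a score per peak. They were whole multiples of 1 step per sample (100% of values, within 0.1 of a whole number), the same step at narrow and wide peaks. They were therefore read as counts per library total, with the scale of 10000000 assumed. Whether these counts equal reads was not tested, since 1 read can fall in several of the overlapping bins.

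The values were divided by RLE factors, and log2(value + 1) was fitted over all 117282 peaks with limma 3.58.1 (lmFit, eBayes with trend and robust moderation, R 4.3.3), with age as the only term, all 4 samples and Benjamini-Hochberg adjustment over all peaks. A peak was called at an adjusted p under 0.01. Fold changes on this scale understate the change of weak peaks. An exact permutation test with 2 samples per group cannot go below p = 0.33, so none was used. The members and gene lists were chosen with earlier results of these data known. Named peaks are the promoter peak of each gene and, of the other member peaks that moved the same way in each of the 4 old-young pairs, the 3 with the largest positive and the 3 with the largest negative difference; of the 44 further genes, those with the 2 largest values in each direction. Sequences came from the RefSeq GRCm38.p6 assembly, within whose chromosomes all 117279 peaks on numbered and sex chromosomes ended. Alternatives tried were no scaling, quantile normalization, equal total signal, a pseudocount of 0.1 or 5, leaving out weak peaks, plain moderation, a replicate block, limma-voom on recovered counts, a threshold of 0.05, other spans upstream and leaving out each sample.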

Additional observations from a re-analysis of the deposited data

How the results depend on the processing

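The number of member peaks called was 0 in both directions under every alternative, except that 2 were called lower without old replicate 1, the Cat promoter peak (-0.43) and the Hmox1 upstream peak (-0.41), so that leaving out 1 sample gave 0 to 2. The count over all peaks was 66 and moved widely: it was 1385 without scaling factors, 22 with equal total signal, 24 with a pseudocount of 0.1, 15 with the filter on weak peaks, 0 with plain moderation (18137 at an unadjusted p under 0.05), 144 with limma-voom, 1316 at an adjusted p under 0.05, and 0 to 10356 without 1 sample (10356 without old replicate 1, 1678 without old replicate 2, 8 without young replicate 1 and 0 without young replicate 2). The labels do not say whether samples of the same number belong together. The correlation of their deviations was -0.0993. With 2 samples per group this is a single value, so it cannot decide the question. With the replicate block 1269 peaks were called, of which 0 were members. The other antioxidant promoters called were 0 to 8 without 1 sample (8 without old replicate 1, 1 without old replicate 2). The median log2 difference of the members was 0.0677; it was -0.1743 without scaling factors and between -0.0758 and 0.2647 without 1 sample, the former without old replicate 2 and the latter without old replicate 1. That of the member promoters was -0.0997; it was -0.3867 without scaling factors and -0.0312 with equal total signal. The count of members with both old samples below was 9 and that with both above was 8, and the latter was 0 without scaling factors. With 1 sample left out the criterion needs 2 orderings in place of 4, so counts of up to 16 lower (without old replicate 2) and up to 14 higher (without old replicate 1) cannot be compared with these. Of the 16 named peaks, 13 kept their sign under every alternative that gave a value; the filter on weak peaks removed 2 of these, the Sod1 upstream peak and the Gclc peak with the most negative value. The other 3 changed it without scaling factors, Nfe2l2 (-0.214), the Keap1 promoter (-0.1157) and Nqo1 (-0.0009), and the Keap1 promoter also without old replicate 2, with a range over the samples left out of -0.0678 to 0.416. The cause of these changes was not tested. Depth limits the weak peaks: the median SE was 0.29 at the 18 other member peaks and 0.15 at the 9 promoter peaks.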

Other observations

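Of the peaks that entered only the alternative with a span of 10 kb upstream, 3 are described here, at Sod1, Hmox1 and Gclc. A peak of 1000 bp centred at -9754 bp from the start of Sod1 had RLE-scaled values of 17.6 and 15.6 in the old samples and 7.63 and 5.34 in the young samples. The old samples were the higher ones, with a log2 difference of 1.25 ± 0.31 (limma adjusted p = 0.0558), which was larger than that of any of the 27 member peaks and did not pass the threshold of 0.01. A peak of 4000 bp centred at -9420 bp from the start of Hmox1 held 5 antioxidant response element cores and had values of 136 and 123 in old cells and 147 and 158 in young cells. Old cells were lower there in both samples, as at the Hmox1 upstream peak inside the limit, with a log2 difference of -0.24 ± 0.16 (limma adjusted p = 0.475). A peak of 1300 bp centred at -9284 bp from the start of Gclc had values of 52.1 and 44.5 in old cells and 37.8 and 34.7 in young cells (log2 difference 0.40 ± 0.21, limma adjusted p = 0.364), of opposite sign to the nearer Gclc upstream peak. These peaks were chosen after their values were seen.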
